A study of Mus musculus with 11 samples.

Results

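Adipocyte genes are described here in RNA from the whole wall of the mouse colon. The list holds 10 genes, Adipoq, Fabp4, Lep, Plin1, Plin4, Cidec, Cfd, Retn, Lpl and Lipe, which were matched by symbol among the 35683 genes of the deposited table, and all 10 were found. They were named for their role in fat cells and not for a difference between the genotypes, though with earlier results of these data known. Libraries of mRNA were made from the colons of 11 mice at 2 weeks of age, of which 6 were Tnfr1-/- and 5 were wild type, with 1 library per mouse. Tnfr1-/- mice lack TNFR1, a receptor for the cytokine TNF that the gene Tnfrsf1a encodes. The labels give no treatment, sex, litter, background strain or batch, and they do not say whether fat attached to the colon was trimmed away.

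A fat cell stores triglyceride in a large lipid droplet and releases fatty acids from it when the body needs fuel. Perilipins coat the droplet, CIDE proteins make droplets grow by fusion, and lipases load and empty the store. Fat cells also secrete hormones, the adipokines, which act on appetite, on insulin sensitivity and on inflammation. In the gut such cells lie mostly in the mesentery along the outer wall, while the epithelium has droplet proteins and fatty acid binding proteins of its own.

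Upstream sequences are shown for Adipoq, Plin1, Cfd and Lep, whose levels followed each other over the libraries, and for the 2 annotated starts of Cidec, which did not follow them closely. Each run is the 250 bases before a RefSeq transcription start on GRCm38.p6, read 5′ to 3′ on the strand of the gene. Capitals mark each match to TTGCNNAA, a motif of C/EBP factors, which act in fat cell differentiation. The windows are chr16:23146286-23146535 (+) for Adipoq, chr7:79732777-79733026 (-) for Plin1, chr10:79890603-79890852 (+) for Cfd and chr6:29059971-29060220 (+) for Lep. For Cidec they are chr6:113435761-113436010 (-) before the outer start and chr6:113434765-113435014 (-) before the inner one.
Adipoq: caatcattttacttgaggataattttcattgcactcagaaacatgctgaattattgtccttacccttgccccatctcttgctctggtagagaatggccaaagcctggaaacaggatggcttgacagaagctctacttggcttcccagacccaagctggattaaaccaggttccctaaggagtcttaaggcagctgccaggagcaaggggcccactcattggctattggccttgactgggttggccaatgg
Plin1: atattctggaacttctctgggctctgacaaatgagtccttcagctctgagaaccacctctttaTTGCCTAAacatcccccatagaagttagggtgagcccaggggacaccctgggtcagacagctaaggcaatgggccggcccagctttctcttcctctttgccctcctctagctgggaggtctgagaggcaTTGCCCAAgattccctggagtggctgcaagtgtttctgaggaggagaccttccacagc
Cfd: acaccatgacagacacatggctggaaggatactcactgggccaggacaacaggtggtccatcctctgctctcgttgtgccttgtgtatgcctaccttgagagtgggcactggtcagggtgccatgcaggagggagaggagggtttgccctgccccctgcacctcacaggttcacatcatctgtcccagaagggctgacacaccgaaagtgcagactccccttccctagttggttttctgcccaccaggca
Lep: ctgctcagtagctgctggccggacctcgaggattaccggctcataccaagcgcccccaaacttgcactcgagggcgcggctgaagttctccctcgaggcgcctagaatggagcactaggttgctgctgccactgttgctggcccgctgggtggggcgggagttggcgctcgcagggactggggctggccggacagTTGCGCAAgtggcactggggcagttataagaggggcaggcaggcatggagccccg
Cidec outer start: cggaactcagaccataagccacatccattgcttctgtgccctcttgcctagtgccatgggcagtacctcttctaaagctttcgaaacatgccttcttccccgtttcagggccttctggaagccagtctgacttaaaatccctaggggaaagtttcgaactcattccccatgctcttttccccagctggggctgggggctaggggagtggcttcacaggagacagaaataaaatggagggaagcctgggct
Cidec inner start: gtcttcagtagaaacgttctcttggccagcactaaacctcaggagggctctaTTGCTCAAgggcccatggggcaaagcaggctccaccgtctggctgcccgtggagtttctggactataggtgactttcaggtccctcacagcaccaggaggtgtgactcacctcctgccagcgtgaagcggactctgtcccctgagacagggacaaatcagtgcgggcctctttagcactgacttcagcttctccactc

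RefSeq promoters were matched for 8 of the 10 genes, with 10 windows in all. Searched on both strands over the 250 bases, TTGCNNAA was found at -187 and -58 of Plin1, at -55 of Lep and at -198 of the inner start of Cidec, counted from the transcription start to the first base of the match. Of all 32851 RefSeq promoter windows of that length, 9.56% hold the motif. The windows of Lipe, which also correlated with Adipoq, are not printed and held no match. The nuclear receptor site AGGTCA on either strand, which 14.0% of windows hold, was in none of the 10 windows. Neither was its repeat AGGTCANAGGTCA, bound by PPARG with RXRA, on either strand (0.0335% of windows), nor the sense TATAAA box (7.59%). AGGTCA lies inside that repeat, so these searches overlap. These matches describe letters in a short window and say nothing of binding. The transcript that begins at the inner start of Cidec, ENSMUST00000113091.7, was listed at 0 in all 11 libraries, whereas transcripts from the outer start were found in every library. Of these, ENSMUST00000032416.10, whose first base is 113435756, was between 7.77 and 13.1, and ENSMUST00000113089.7, whose first base is 113435760, was above 2 in 7 of 11. A further Cidec transcript, ENSMUST00000133348.1, begins at 113434613, nearer the inner start than the outer one. It was between 2.91 and 9.51 and held 31.9% of the abundance of Cidec, and neither printed window ends at its first base.

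Levels are given as abundance, the TPM of a gene after scaling with the size factor of its library. Tnfrsf1a lay at 61.7 to 73.1 for wild type and at 19.0 to 28.0 for Tnfr1-/-, which fits the labels (log2 fold change -1.57, SE 0.10, limma adjusted p = 8.5e-05). It was the 1 gene of 15079 tested (0.00663%) that passed at an adjusted p under 0.05, the rule for a call throughout. Libraries held an estimated 27.6 to 42.0 M reads each. Fold changes are given on the log2(value + 0.5) scale as Tnfr1-/- over wild type. The exact permutation test of 6 against 5 libraries can give no p below 0.0022.

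For no adipocyte gene was a difference between the genotypes found beyond the spread among mice, which was wide. Of the 9 tested genes, limma called 0, against the background of 0.00663%, and 0 had an unadjusted p under 0.05, against 9.37% of all genes tested. Lep did not reach the abundance needed for a test, a value of 1 in 5 libraries. Fold changes were above 0 for 8 of the 9 genes and below 0 for 1, with a median of 0.25 against -0.0061 over all genes, of which 47.9% were above 0. Adjusted p ran from 0.573 to 0.977, and exact p over all 10 genes from 0.0931 to 0.885. Groups overlapped for all 10 genes, while they did not overlap for 1.49% of all genes. In bulk tissue, fewer fat cells and less RNA per fat cell cannot be told apart.

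Most of the upward difference sat in 2 of the 6 Tnfr1-/- colons. Tnfr1-/- replicates 4 and 6 were the 2 highest of 11 libraries for 8 of the 10 genes (7 of the 9 tested), an order found for 5.07% of all genes tested. The exceptions were Plin4 and Cidec. The summed abundance of the 10 genes was 187 to 259 in wild type, 170 to 234 in Tnfr1-/- replicates 1, 2, 3 and 5, 432 in replicate 4 and 627 in replicate 6. Without replicates 4 and 6, which lowers the difference by construction because they were picked as high after the values were seen, 1 of 9 genes was above 0 and the median was -0.24. That fit called 0 of the 9, with 1, Lipe, at an unadjusted p under 0.05 (limma adjusted p = 0.713). Without replicate 6 alone, 5 of 9 were above 0.

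**Figure D1:**
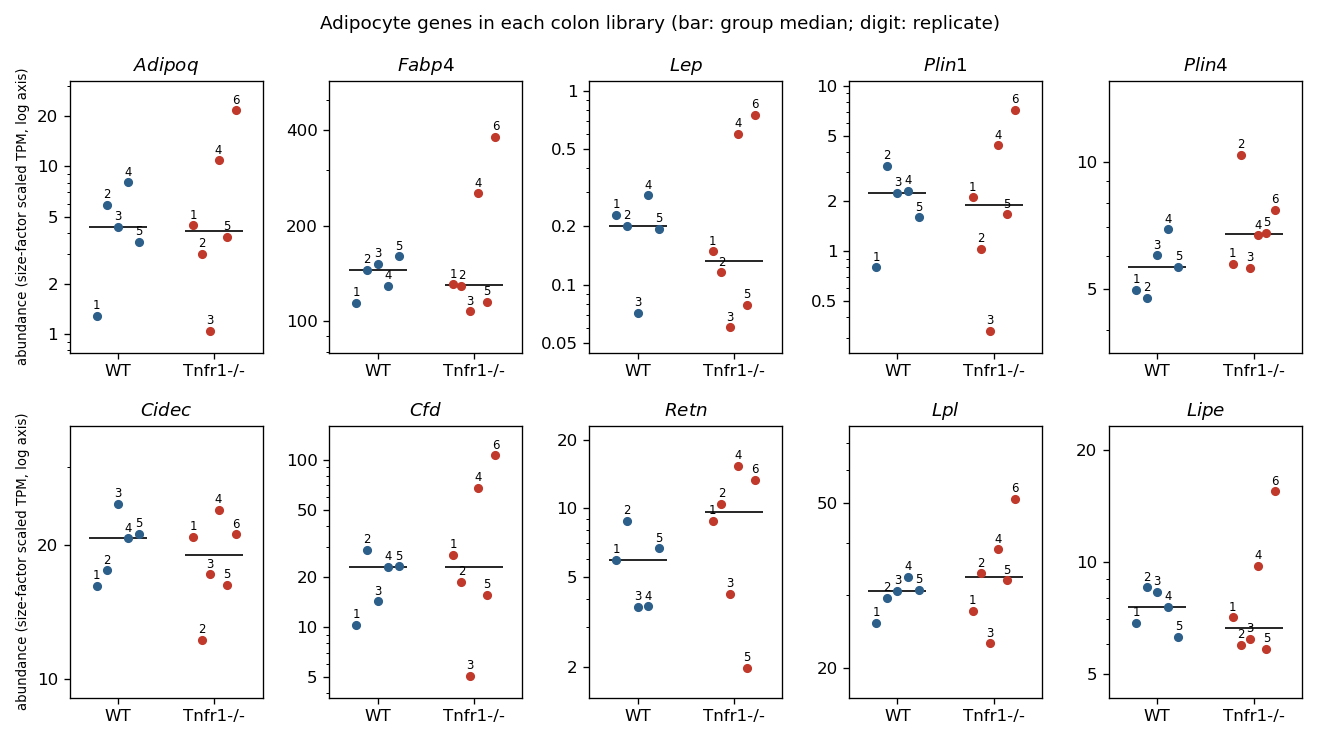
Abundance (size-factor scaled TPM, log axis) of the 10 adipocyte genes in each library, with digits for the replicate and a bar at the group median. Tnfr1-/- replicates 4 and 6 are the 2 highest libraries in 8 of the 10 panels, all but Plin4 and Cidec, and the groups overlap in every panel.

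Among the adipokines, Adipoq encodes adiponectin, a hormone made almost only by fat cells that raises insulin sensitivity. Its abundance was 1.29, 5.89, 4.36, 8.05 and 3.54 in wild-type replicates 1 to 5. In Tnfr1-/- it had a lowest value of 1.05 in replicate 3, a median of 4.12 and highest values of 10.9 in replicate 4 and 21.6 in replicate 6. The group medians were close, 4.36 for wild type against 4.12 for Tnfr1-/-, and only replicates 4 and 6 lay above the wild-type range. The mean was 4.62 ± 2.53 for wild type (SD, n = 5) against 7.47 ± 7.69 for Tnfr1-/- (SD, n = 6). Limma gave a log2 fold change of 0.29 (SE 0.63, 95% interval -1.09 to 1.67, adjusted p = 0.928), and the exact permutation p was 0.693. Without wild-type replicate 1, the lowest of its group, it was -0.05, and without Tnfr1-/- replicate 6 it was -0.11. Adipoq (ENSMUSG00000022878) lies on chromosome 16 at 23146536 to 23158028 (GRCm38), and the transcript ENSMUST00000023593.5 held 96.9% of its abundance.

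Cfd encodes adipsin, the complement protease factor D, which fat cells secrete. In wild type it was at 10.3, 28.9, 14.2, 22.9 and 23.0. In Tnfr1-/- the lowest value was 5.11 in replicate 3, the median 22.8, and the highest were 68.0 in replicate 4 and 106 in replicate 6. The order of the libraries was much like that of Adipoq, with the same pair at the top and Tnfr1-/- replicate 3 and wild-type replicate 1 at the bottom. Cfd had the largest fold change of the list, at 0.47 (SE 0.66, 95% interval -0.97 to 1.91, limma adjusted p = 0.863, exact permutation p = 0.535). Without Tnfr1-/- replicates 4 and 6 it was -0.38. Cfd lies on chromosome 10 at 79890853 to 79892655.

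Lep encodes leptin, the hormone that reports the size of the fat stores to the brain. It was close to the limit of detection in every colon, with an estimated 3 to 59 reads per library. In wild type it was at 0.229, 0.201, 0.0714, 0.289 and 0.194. In Tnfr1-/- it ran from 0.0603 in replicate 3 over a median of 0.132 to 0.602 in replicate 4 and 0.752 in replicate 6. The same 2 colons thus stood above the rest, and the other 4 Tnfr1-/- colons lay within or below the wild-type range. The difference had an exact permutation p of 0.600. Its receptor Lepr, not a member of the list, averaged 2.79 ± 0.896 for wild type (SD, n = 5) against 2.71 ± 0.382 for Tnfr1-/- (SD, n = 6). Lep lies on chromosome 6 at 29060220 to 29073877, 96.3 Mb from Tnfrsf1a.

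Retn encodes resistin, an adipokine of the mouse that opposes insulin. Wild-type values were 5.94, 8.83, 3.68, 3.71 and 6.66. Tnfr1-/- values ran from 1.98 in replicate 5 over a median of 9.64 to 13.3 in replicate 6 and 15.4 in replicate 4. Replicates 2, 4 and 6 of Tnfr1-/- were above the highest wild-type value, replicate 1 was level with it at 8.84, and the lowest of all 11 was also Tnfr1-/-. Its log2 fold change of 0.42 did not pass (SE 0.46, limma adjusted p = 0.805, exact permutation p = 0.426). Retn lies on chromosome 8 at 3655770 to 3660110.

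**Figure D2:**
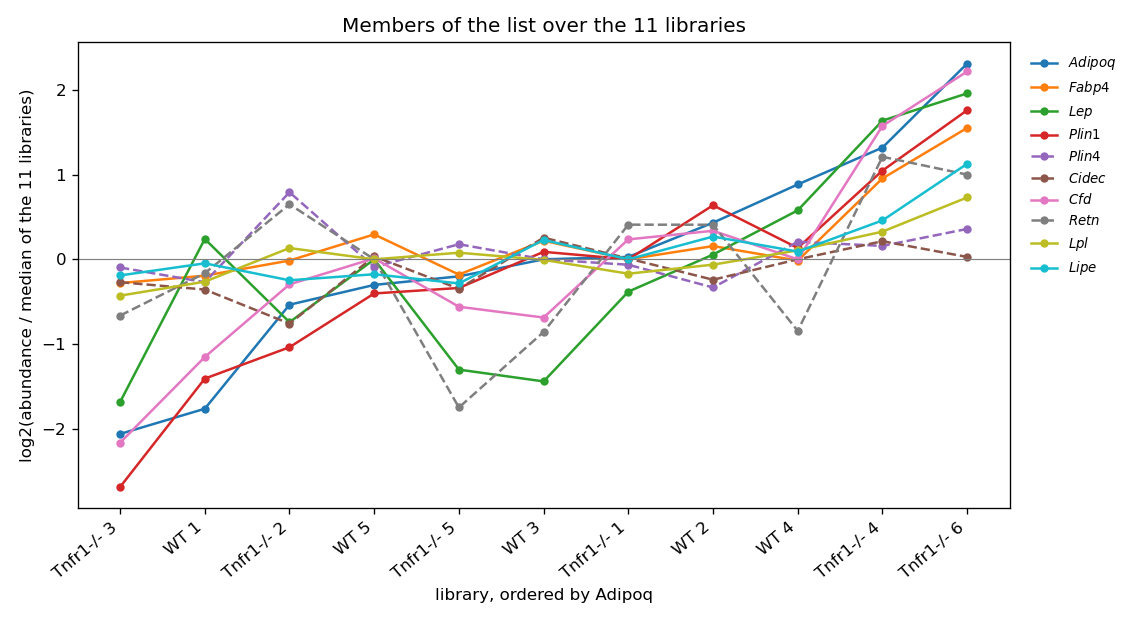
Log2 ratio of each adipocyte gene to its median over the 11 libraries, with the libraries ordered by Adipoq. Lines for Plin1 and Cfd climb with Adipoq from Tnfr1-/- replicate 3 to replicate 6, while the dashed lines of Plin4, Cidec and Retn do not follow that order.

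Of the droplet proteins, Plin1 encodes perilipin 1, the coat protein of the fat cell droplet that holds lipases back until a hormone signal comes. It was at 0.798, 3.29, 2.25, 2.32 and 1.60 in wild type. In Tnfr1-/- it ran from 0.329 in replicate 3 over a median of 1.90 to 4.37 in replicate 4 and 7.16 in replicate 6. Highest and lowest library differed 21.7-fold, and Tnfr1-/- held both ends. Its log2 fold change of 0.08 did not pass (SE 0.52, 95% interval -1.05 to 1.21, limma adjusted p = 0.977, exact permutation p = 0.885). It turned to -0.24 without Tnfr1-/- replicate 6, to -0.11 without replicate 4 and to -0.14 without wild-type replicate 1. Plin1 lies on chromosome 7 at 79720218 to 79732903. The transcript ENSMUST00000205915.1, with 9 exons, held 74.0% of its abundance, and ENSMUST00000032762.13, which begins where the printed window ends, was listed at 0 in all libraries. The first base of ENSMUST00000205915.1, 79732787, lies inside that window near its end. Motif positions given for Plin1 are counted from the end of the window and not from that base.

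Plin4 encodes perilipin 4, a coat protein of small and nascent droplets that muscle also makes. Wild-type values were 4.98, 4.77, 6.01, 6.93 and 5.65, and Tnfr1-/- values ran from 5.62 in replicate 3 over a median of 6.75 to 10.4 in replicate 2. The values lay closer together than those of Plin1, with 2.18-fold between the highest and the lowest library. Plin4 had the smallest p of the list, with means of 5.67 ± 0.864 for wild type (SD, n = 5) against 7.16 ± 1.76 for Tnfr1-/- (SD, n = 6). The log2 fold change was 0.30 (SE 0.15, 95% interval -0.03 to 0.62, limma adjusted p = 0.573, exact permutation p = 0.0931). Tnfr1-/- replicate 2 also had the highest summed abundance of 8 skeletal muscle genes, at 8866 against 451 to 2823 in the other libraries, and the part of that tissue in the value of Plin4 was not tested. Without replicate 2 the log2 fold change was 0.19 (limma adjusted p = 0.735). Plin4 lies on chromosome 17 at 56100591 to 56109803.

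Plin4 was also where a single transcript came closest to a difference. Of the 36 transcripts of the 10 genes 13 were tested, 0 were called, against 0.00902% of all transcripts tested, and 1 had an unadjusted p under 0.05, against 8.26%. It was ENSMUST00000190703.6 of Plin4 (log2 fold change 0.41, SE 0.16, limma adjusted p = 0.564). In the authors' deposited table it has a p of 0.0168 and a q of 1.0, and every tested transcript of the 10 genes has a q of 1.0 there. Its partner ENSMUST00000002908.7 is nearly the same length, at 5755 against 5756 bases, and had a log2 fold change of 0.03. In Tnfr1-/- replicate 3 the partner was at 0.754 and ENSMUST00000190703.6 at 4.87, whereas in the other 10 libraries the partner was the higher, so the split between such similar transcripts is uncertain.

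Cidec encodes FSP27, a protein that moves lipid between touching droplets. It was at 16.2, 17.5, 24.7, 20.7 and 21.2 in wild type. Tnfr1-/- values had a low of 12.3 in replicate 2, a median of 19.0 and a high of 24.0 in replicate 4. This was the flattest gene of the list, with 2.02-fold from lowest to highest, and the 1 tested gene with a fold change below 0, at -0.12 (SE 0.16, limma adjusted p = 0.855, exact permutation p = 0.515). Its abundance came from ENSMUST00000032416.10 (53.6%), ENSMUST00000133348.1 (31.9%) and ENSMUST00000113089.7 (14.5%). Cidec lies on chromosome 6 at 113424634 to 113435760, 11.9 Mb from Tnfrsf1a.

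Fabp4, the fatty acid carrier protein aP2, is made by fat cells and also by capillary endothelium and macrophages. It was the most abundant member, at 114, 146, 152, 129 and 160.1 in wild type. In Tnfr1-/- it ran from 108 in replicate 3 over a median of 130.0 to 253 in replicate 4 and 382 in replicate 6. Apart from those 2, the Tnfr1-/- colons lay at or below 131, within or just under the wild-type range. The mean was 140.3 ± 18.4 for wild type (SD, n = 5) against 186 ± 110.0 for Tnfr1-/- (SD, n = 6), with a log2 fold change of 0.25 (SE 0.31, limma adjusted p = 0.839, exact permutation p = 0.502). Without replicates 4 and 6 it was -0.21. Fabp4 lies on chromosome 3 at 10204088 to 10208576.

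Lpl encodes lipoprotein lipase, which frees fatty acids from circulating lipoproteins for uptake. It was at 25.7, 29.6, 30.7, 33.2 and 30.9 in wild type, and from 22.9 in replicate 3 over a median of 33.2 to 38.7 in replicate 4 and 51.2 in replicate 6 in Tnfr1-/-. The range was narrow for this list at 2.23-fold, and replicates 2, 4 and 6 of Tnfr1-/- lay above the wild-type maximum. Its log2 fold change of 0.16 did not pass (SE 0.17, limma adjusted p = 0.808, exact permutation p = 0.450). Lpl lies on chromosome 8 at 68880491 to 68907448.

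Lipe encodes hormone-sensitive lipase, which breaks down stored diglyceride and is also made outside fat. Its wild-type values were 6.86, 8.54, 8.31, 7.55 and 6.28. In Tnfr1-/- they ran from 5.82 in replicate 5 over a median of 6.65 to 9.75 in replicate 4 and 15.5 in replicate 6. The median was thus a little lower in Tnfr1-/- while the mean was higher, at 8.39 ± 3.77 (SD, n = 6) against 7.51 ± 0.954 in wild type (SD, n = 5). Limma gave a log2 fold change of 0.07 (SE 0.23, adjusted p = 0.953, exact permutation p = 0.829), and it was -0.12 without replicate 6. Lipe lies on chromosome 7 at 25379527 to 25398710.

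**Figure D3:**
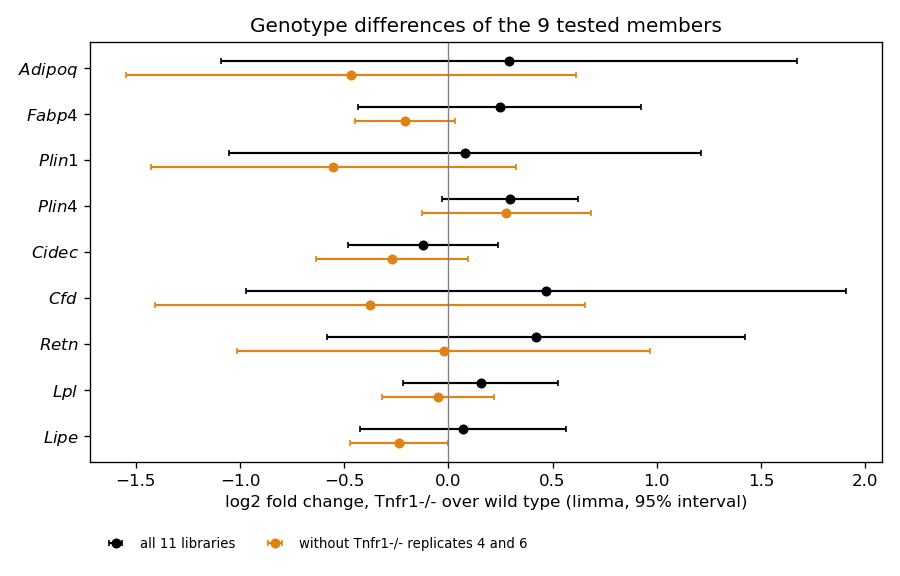
Log2 fold change of the 9 tested adipocyte genes, Tnfr1-/- over wild type, with 95% limma intervals, for all 11 libraries and without Tnfr1-/- replicates 4 and 6. Each interval from all libraries spans 0, and 8 of the 9 points lie below 0 once the 2 colons are left out, all but Plin4.

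For 4 of the genes the spread over the libraries was among the widest in the colon. The SD of Cfd on the log2 scale was larger than that of 98.1% of the genes tested, that of Adipoq larger than 97.9%, of Plin1 than 96.8% and of Retn than 96.3%. Fabp4 followed at 93.1% and Lipe at 87.3%, and Lpl, Plin4 and Cidec lay at 78.7%, 77.4% and 76.6%. Relative to the median of the other 9 libraries, Tnfr1-/- replicate 6 had 5.70 times the Cfd, 5.69 times the Adipoq and 5.06 times the Lep. For Lpl the ratio was 1.67, for Plin4 1.34 and for Cidec 1.20. Replicate 4 had 3.65 times the Cfd and 2.87 times the Adipoq. Adipoq, Plin1 and Cfd thus ranged about as widely as each other, at 20.6-fold, 21.7-fold and 20.8-fold from lowest to highest. The low end held across genotypes: Adipoq in Tnfr1-/- replicate 3 was 24.0% of its median over all libraries, and in wild-type replicate 1 it was 29.5%.

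Over the 11 libraries 6 of the other 9 genes correlated with Adipoq. No share of all genes that correlate with Adipoq is given, so this count has no background to be set against. Plin1 followed it most closely (Pearson r = 0.97, Spearman rho = 0.98, permutation p = 3e-05 and 1e-05, adjusted over the 9 genes 2.7e-04 and 9e-05), where 1e-05 is the smallest p that 100000 resamples can give. Cfd came next (r = 0.94, rho = 0.85, permutation p = 1.2e-04 and 0.00168, adjusted 5.4e-04 and 0.00756). By Pearson r, Lpl (0.90, adjusted permutation p = 0.00108), Fabp4 (0.85, 0.00121), Lipe (0.82, 0.00265) and Lep (0.79, 0.006) also passed. Lpl did not pass by rank (rho = 0.65, adjusted permutation p = 0.0531). Cidec (r = 0.51), Retn (0.47) and Plin4 (0.32) did not pass by either measure. The points share library preparation and scaling, since all genes were read from the same 11 libraries.

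How far the correlations rest on single colons differed between the genes. Without Tnfr1-/- replicates 3 and 6, the 2 libraries farthest from the median of Adipoq, Plin1 (r = 0.92, adjusted permutation p = 0.00732) and Cfd (r = 0.83, adjusted permutation p = 0.0413) still passed, as exact tests over 9 libraries. Lpl (0.71), Fabp4 (0.67), Lipe (0.66) and Lep (0.56) no longer passed, so for them the call rests on those samples. Leaving out the extremes of Adipoq lowers r by construction, and r stayed above 0.5 for all 4. Without Tnfr1-/- replicates 4 and 6, picked after the values were seen, r was 0.74 for Lpl and 0.60 for Fabp4. It was 0.51 for Lipe and 0.39 for Lep, and none of these 4 passed (adjusted exact permutation p from 0.076 to 0.396). Plin1 (r = 0.92, adjusted exact permutation p = 0.00275) and Cfd (r = 0.85, adjusted exact permutation p = 0.016) passed there too. Within the 6 Tnfr1-/- libraries the 6 genes passed, with r from 0.90 for Lipe to 0.99 for Plin1. With each value taken as its deviation from the group mean, the same count of 6 passed, with r = 0.97 for Plin1 and 0.94 for Cfd. Such deviations remove the difference in means between the genotypes but not the difference in spread. For Cfd the SD on the log2 scale was 1.53 in Tnfr1-/- against 0.59 in wild type. No correlation is given within wild type, which has 5 libraries, because at least 6 were required.

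**Figure D4:**
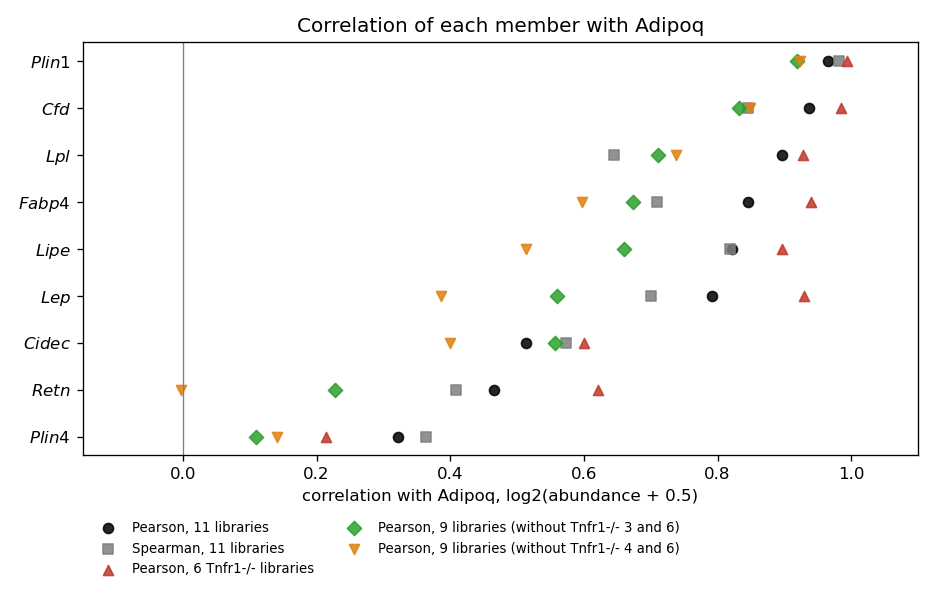
Correlation of each adipocyte gene with Adipoq on log2(abundance + 0.5), over all libraries by Pearson and Spearman, within Tnfr1-/-, and without 2 pairs of libraries. Plin1 and Cfd stay above 0.8 under each choice, and Plin4 stays below 0.4.

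Genes outside the list were ranked by how closely they followed it. Likeness was measured as Pearson r over 11 libraries to the mean standardized log2 level of the tested members, among 13890 genes with a mean abundance of at least 1. Closest was Adig, adipogenin, a small membrane protein of fat cells (r = 0.92). Adig was at 4.46, 5.63, 5.28, 4.96 and 5.31 in wild type, and in Tnfr1-/- it ran from 2.60 in replicate 5 to 8.24 in replicate 4 and 15.9 in replicate 6. It was followed by Smpd1, acid sphingomyelinase (0.90), Trim62 (0.89), Rad9a (0.87, listed under 2 Ensembl IDs with the same values), Def6 (0.87), Cherp (0.87), Pmel (0.86), Vsig10l (0.86) and Nsmaf (0.85). These r values are the highest of many and are given as a description. Most of these genes moved little in size: Smpd1 ran from 18.8 to 28.4 over all libraries and Trim62 from 3.31 to 4.40.

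Other genes of the fat cell were read from fixed lists, in each of which limma called 0 genes. Of all genes tested, 9.37% had an unadjusted limma p under 0.05, and 5.07% had Tnfr1-/- replicates 4 and 6 as their 2 highest libraries. In lists this short, single genes of either kind do not stand out from those shares. Among 9 tested further markers of white fat, 6 were higher and 3 lower in Tnfr1-/- in fold change, with a median of 0.07 and 1 at an unadjusted p under 0.05. The most abundant were Car3, carbonic anhydrase 3, averaging 46.7 ± 15.6 for wild type (SD, n = 5) against 124 ± 130.2 for Tnfr1-/- (SD, n = 6), then Sncg, Aoc3 and Rbp4. Car3 is also a gene of skeletal muscle, and its highest value, 382, was in Tnfr1-/- replicate 2, the library with the most skeletal muscle RNA. Replicates 4 and 6 were the 2 highest libraries for 1 of the 9, Adig, and Mrap, Slc36a2 and Tusc5 were too low to test. Mrap, an accessory protein of the melanocortin receptor, reached 2.49 in replicate 6 and at most 1.32 elsewhere. Of 10 tested factors of fat cell differentiation, 4 were higher and 6 lower (median -0.07), 2 of them lower at an unadjusted p under 0.05. Pparg, the master regulator of that program and also a gene of colon epithelium, averaged 61.7 ± 4.79 for wild type against 53.0 ± 6.42 for Tnfr1-/- (SD, n = 5 and 6, limma adjusted p = 0.472). Its value was 60.1 in replicate 6 and 49.1 in replicate 4, inside the range of the rest, so the abundance of Pparg did not set these 2 colons apart. Cebpa was the 1 tested factor with replicates 4 and 6 as its 2 highest libraries. It was at 52.3 in replicate 4 and 52.0 in replicate 6, against at most 49.5 elsewhere.

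Droplet and lipolysis genes, many of which other cells use too, came out on both sides. Of 12 tested, 5 were higher and 7 lower in fold change, with a median of -0.0039 and 0 at an unadjusted p under 0.05. Plin2, the droplet coat protein of most tissues, averaged 140 ± 6.57 for wild type against 143 ± 13.7 for Tnfr1-/- (SD, n = 5 and 6). The triglyceride lipase gene Pnpla2 averaged 57.3 ± 4.72 and 55.9 ± 3.69. Abhd5, the coactivator of that lipase, was the 1 gene of the 12 with replicates 4 and 6 as its 2 highest libraries. Fatty acid and triglyceride synthesis had 10 of 16 higher and 6 lower (median 0.09), with Acsl1 higher and Agpat2 lower at an unadjusted p under 0.05. Scd1, a desaturase, averaged 44.4 ± 11.0 for wild type against 66.7 ± 33.9 for Tnfr1-/-, with 99.2 in replicate 6, 96.1 in replicate 4 and 10.8 in replicate 5. Of the receptors of adipokines and the partners of lipoprotein lipase, 9 of 10 were higher and 1 lower, with a median of 0.05 and 0 at an unadjusted p under 0.05. Adipor1 averaged 74.7 ± 5.88 and 75.1 ± 3.55 and Gpihbp1, which holds the lipase on capillaries, at 11.6 ± 3.18 and 12.0 ± 2.21. None of the 10 had replicates 4 and 6 as its 2 highest libraries.

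Markers of other tissues in the colon wall were read in the same 2 colons. Mesothelium, the cell layer over the outer surface and the mesentery, had 6 tested markers, 5 higher and 1 lower in Tnfr1-/- in fold change, with a median of 0.21. Its summed level, 1422 to 2892 over all libraries, came almost wholly from Krt19, which the epithelium also makes. Wt1, a mesothelial transcription factor, was at 3.10 in replicate 6 and 1.77 in replicate 4 and at most 1.66 elsewhere. Upk1b was at 3.72 and 4.49 in the same colons and at most 3.06 elsewhere, while Upk3b and Msln were high in replicate 6 (5.65 and 5.17) and in replicate 5 (4.35 and 4.79). Without Krt19, a choice made after the values were seen, the other 6 mesothelial genes summed to 22.5 in replicate 6, 18.3 in replicate 5 and 15.9 in replicate 4, and to 3.58 to 13.0 in the other libraries. The sum went with Adipoq at an unadjusted p under 0.05 (r = 0.74, permutation p = 0.00784, rho = 0.65, permutation p = 0.0336), and each of its 6 genes had an r of 0.55 to 0.77. Adjusted over 16 list sums it did not pass (adjusted permutation p = 0.125 and 0.460), and without Tnfr1-/- replicates 3 and 6 it had r = 0.62 (exact permutation p = 0.0697). Adipoq in replicate 5 was 3.80. The summed level of 8 epithelial genes was lowest of all 11 libraries in replicates 6 and 4, at 4171 and 4189, against 4388 to 7402 elsewhere. Capillary endothelium summed to 118 and 115 there, within the 93.2 to 143 of the other libraries, and macrophage genes to 123 and 121, within 85.6 to 162. Preadipocyte and stroma genes summed to 779 in replicate 6 and 765 in replicate 4, within 574 to 881 elsewhere. Their sum had an r of 0.53 with Adipoq (adjusted permutation p = 0.682). Smooth muscle genes summed to 8866 in replicate 6 and 6675 in replicate 4, within 4605 to 12021 elsewhere. Of the 15 list sums as fixed, none passed a correlation with Adipoq (adjusted permutation p from 0.478), droplet and lipolysis genes having the highest r, 0.64. A sum follows its most abundant genes, so for mesothelium it reads Krt19 (r = -0.31) and does not bear on the other markers. The part of these tissues in the values of the adipocyte genes was not tested.

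**Figure D5:**
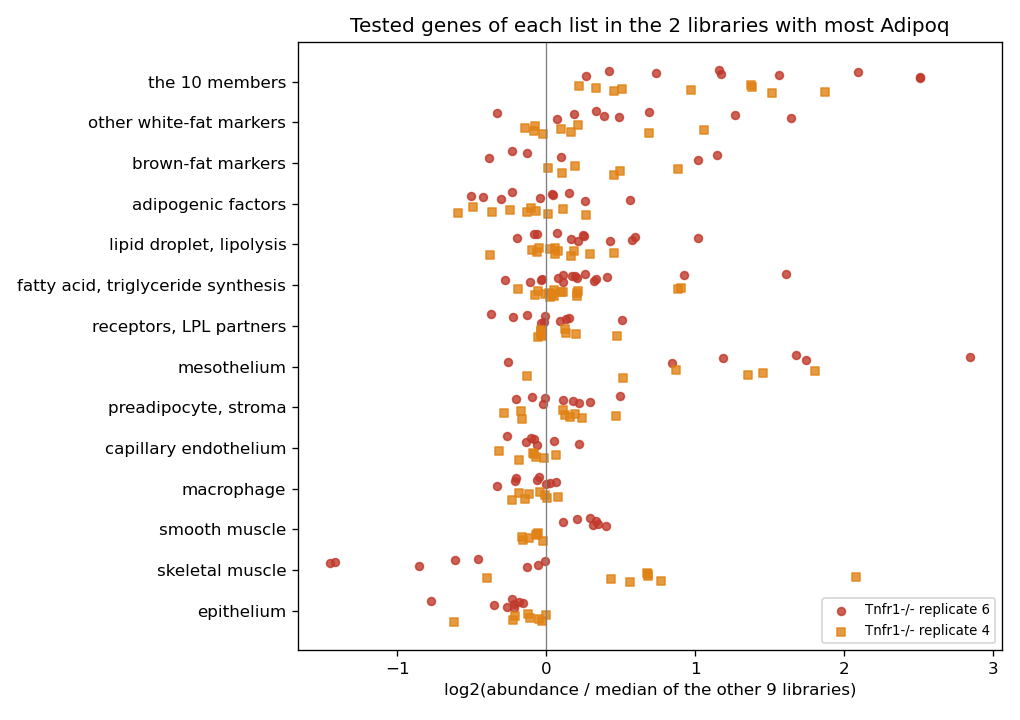
Log2 ratio of tested genes in Tnfr1-/- replicates 6 (circles) and 4 (squares) to their median over the other 9 libraries, 1 row per list shown. Genes too low to test, Lep among them, and the lists of pancreas, lymph node and paralogs are left out. All points of the tested adipocyte genes lie to the right of 0, as do those of mesothelium except Krt19, and those of epithelium lie to the left.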

How the data were processed

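RNA was measured in full-thickness colon of 11 mice by stranded mRNA libraries read from a single end, per the labels' protocols. Without giving versions or roles, the submitters' processing notes list kallisto, sleuth, CASAVA and mm10. The authors deposited a normalized signal for each mouse, which is TPM after division by the size factor of its library. The deposited p-value and q-value columns are the authors' test of each transcript. The deposited mean is on the natural log (ln) scale, and the authors' fold change is a log2 ratio of group means.

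Repeated lines of 584 transcripts were dropped and values were summed per Ensembl gene. Genes with a value of at least 1 in at least 5 libraries were tested by limma 3.58.1 (trend, R 4.3.3) after taking log2(value + 0.5), two-sided, with Benjamini-Hochberg adjustment over all 15079 genes. This scale understates the change of low genes. Single genes also had a two-sided exact permutation test, unadjusted. Correlations used 100000 resamples, or exact tests under 10 values (scipy 1.17.1). Depth is not in the table. It was estimated from steps of low values, of which 54.0% to 56.9% were whole within 0.02 of a read, so no count test was run. The fit was tested on simulated data. Positions are from GENCODE M21. Replicates are separate mice.

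Members and lists were chosen with earlier results of these data known. Named genes are the members, Tnfrsf1a, up to 4 abundant tested genes per list and the 10 genes most like the members. Adig, Mrap, Lepr, Pparg, Abhd5, Acsl1, Agpat2, Scd1, Gpihbp1, Wt1, Upk1b, Upk3b, Msln, Ppargc1a, Ucp1 and Dio2, where outside that rule, were chosen after their values were seen. Alternatives were other pseudocounts, filters and scalings, array weights, a replicate block and leaving out libraries.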

Additional observations from a re-analysis of the deposited data

How the results depend on the processing

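No adipocyte gene was called under any of 21 alternatives, and no transcript of one under any of 20. Over all genes 3 were called with array weights, 1 to 2 when single libraries were left out (2 without wild-type replicate 1) and 1 under the other settings. Over all transcripts it was 1 to 10 when single libraries were left out, with 10 without wild-type replicate 2. Columns rescaled to TPM put 54.1% of genes above 0, against 47.9%, and 646 of 1152 genes at an unadjusted p under 0.05 were then higher, against 634 of 1413. Fold changes of the members over left-out libraries ran from -0.11 to 0.66 for Adipoq (-0.05 without wild-type replicate 1), -0.24 to 0.40 for Plin1, -0.12 to 0.15 for Lipe, 0.0038 to 0.37 for Fabp4, 0.07 to 0.92 for Cfd, 0.22 to 0.76 for Retn, 0.03 to 0.26 for Lpl, 0.19 to 0.37 for Plin4 and -0.20 to -0.01 for Cidec. Without Tnfr1-/- replicates 4 and 6, a choice made after the data were seen, Adipoq was at -0.47, Plin1 -0.55, Cfd -0.38, Fabp4 -0.21, Lipe -0.24, Retn -0.022 and Lpl -0.050, and the correlation of Retn with Adipoq was -0.0033. That of the mesothelium sum was -0.31, and 0.74 without Krt19, also chosen after the data were seen. Members above 0 were 5 of 9 without Tnfr1-/- replicate 6, 1 of 9 without replicates 4 and 6, and 3 of 4 with a filter at a value of 10.

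With the replicate number as a block, which leaves out Tnfr1-/- replicate 6 for want of a partner, Adipoq was at -0.11, Plin1 at -0.24 and Lipe at -0.12, 5 of 9 members were above 0, and 1 gene was called. The same values came without replicate 6 and without a block. Same-numbered libraries correlated at -0.22 to 0.38 in their deviations, 3 of 5 pairs over 0.1. Libraries with different numbers correlated at -0.36 to 0.49, and 1 Tnfr1-/- library was closest to the wild-type library of its own number. So few pairs cannot settle whether the numbers pair the mice, and the labels give no litter or batch. Depth limits Lep most, at an estimated 3 to 59 reads.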

Other observations

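Brown-fat genes differed among themselves in how they went with Adipoq, with r from -0.28 for Cox7a1 to 0.64 for Ucp1 and 0.78 for Dio2, as a description over the 11 libraries. Ucp1, the uncoupling protein of brown fat, was listed at 0 in wild-type replicates 1, 2 and 5 and in Tnfr1-/- replicates 2 and 5. Wild-type replicates 3 and 4 had 8.06 and 3.06, and Tnfr1-/- replicates 1, 3, 4 and 6 had 2.31, 0.0771, 0.977 and 8.76. Ucp1 and Dio2, a deiodinase at 0.195 to 0.536, were too low for a test. Of 6 tested brown-fat genes all 6 had a fold change above 0, against 47.9% of all genes tested, with a median of 0.17. Limma called 0 of them, and 1, Ppargc1a, was higher at an unadjusted p under 0.05, against 9.37% of all genes tested in either direction. Ppargc1a had an r of -0.14 with Adipoq. Cox7a1, a muscle and brown-fat subunit of cytochrome oxidase, averaged 74.1 ± 15.7 for wild type against 81.9 ± 25.3 for Tnfr1-/- (SD, n = 5 and 6). It was highest in Tnfr1-/- replicate 2, at 126, the library with the most skeletal muscle RNA. Cox8b, another of the 6, was highest in that library too, at 102, and the part of muscle in these values was not tested.

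Tnfr1-/- replicate 5 stood low in a set of lipid genes of its own. Elovl3, a fatty acid elongase, was at 0.302 there and between 5.12 and 20.5 in the other 10 libraries. Cidea, a droplet protein related to Cidec, was at 1.34 there and between 4.94 and 16.0 elsewhere. Retn, at 1.98, and Scd1, at 10.8, were also lowest in that library, whereas Adipoq, at 3.80, was near its median. The genes were picked after their values were seen.

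Fabp5, the paralog of Fabp4 that epithelium makes, was highest in the same 2 colons as Fabp4, at 359 in Tnfr1-/- replicate 6 and 244 in replicate 4, and lowest in replicate 5, at 78.1. Limma gave it a log2 fold change of 0.35 (SE 0.32, adjusted p = 0.765).

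In none of 20 sets, 1 per gene and genotype, did a library lie far from the rest of its set by Dixon's test, where chance gives about 1. That test can miss a pair of high libraries in a set, such as Tnfr1-/- replicates 4 and 6.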
